A study of Mus musculus with 36 samples.

Results

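Phlda1, Phlda2 and Phlda3, the family of small proteins with a pleckstrin homology-like domain, were followed in mouse astrocyte cultures together with 4 other genes, Lbh, Tnfrsf11b, Prokr1 and Mex3a. Phlda1, Lbh, Tnfrsf11b, Prokr1 and Mex3a were selected on their lower values with the stress hormone corticosterone than with vehicle on these arrays, and Phlda2 and Phlda3 were added as relatives of Phlda1. The 7 genes are represented by 12 probes, all that carry one of these symbols, out of 28908 genes on the array. The fit held 18935 genes whose brightest probe lay above the median of its array 3 times or more. Of the 7 genes, 6 entered it, through 11 of the 12 probes, and Phlda2 did not. A gene that passes because it is bright in some groups is more likely to differ between groups, so the 6 are not the whole set.

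Corticosterone, the main glucocorticoid of rodents, binds the glucocorticoid receptor, which then moves to the nucleus. There it raises genes by binding DNA itself and lowers others, often by meeting transcription factors such as AP-1 and NF-kB that are already at work on them. RU486 (mifepristone) occupies the same receptor and is used as its antagonist. Phlda1 is induced by growth factor and ERK signalling and was first described in T cells undergoing activation-induced death. Phlda2 is an imprinted gene that restrains growth of the placenta, and Phlda3 is a p53 target that competes with AKT for membrane lipids. Lbh is a transcriptional cofactor and, in mouse mammary tissue, a Wnt target. Tnfrsf11b encodes osteoprotegerin, a secreted decoy receptor for RANKL and TRAIL whose production by bone cells is known to be lowered by glucocorticoids. Prokr1 is a G-protein-coupled receptor for prokineticins, and Mex3a is an RNA-binding protein.

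The cultures came from the brains of C57B/6 mice at postnatal days 0 to 2, were called cortical by the sample labels (the growth protocol names cortex or hippocampus), and were grown for 9 to 11 days in medium with 10% fetal bovine serum, which all groups shared. They received vehicle, 100 nM corticosterone, 500 nM RU486, or 100 nM corticosterone with 500 nM RU486, for 2, 4 or 6 h. Each of the 12 groups holds 3 Illumina bead arrays, 36 in all. The labels do not say that the 3 come from separate cultures, so the spread behind every p-value here is that between arrays and may be technical. In cultures of several cell types, fewer cells of a type and less RNA per cell cannot be told apart.

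There were 2 arrays that stood apart from the rest, vehicle 6 h replicate 1 and replicate 3 of both agents at 6 h. Their median correlations across probes with the remaining arrays were 0.757 and 0.886, where the 34 others ranged from 0.960 to 0.990. The main results that use these arrays are given with and without them. Of 10 astrocyte markers, 9 were above the array's median on every array, with a summed intensity of 71018 to 118053. Markers of other cells were present too: 4 of 8 for microglia (summed intensity 1239 to 2152), 5 of 8 for the oligodendrocyte lineage (2635 to 4809) and 4 of 8 for fibroblasts and meninges (1849 to 3187) were above the median on every array, and 0 of 6 for endothelium (595 to 1158). Itgam, Mog and Lum, of the first 3 lists, and the neuronal marker Snap25 were above it on no array. The summed intensity of 7 neuronal markers, 3 of them above the median on every array, differed between groups. At 4 h it was 3484 to 3564 with corticosterone, 3944 to 4451 with vehicle, 4247 to 4638 with RU486 and 4208 to 4507 with both. At 6 h the corresponding ranges were 3082 to 3870, 3917 to 5494 (3917 to 4172 without the array that stands apart), 3230 to 3873 and 4249 to 6631 (4249 to 4323), and at 2 h they were 3832 to 4330, 3223 to 4632, 4800 to 5655 and 4570 to 4961. The astrocyte sum also parted some groups. At 4 h it was 71018 to 92618 with corticosterone, 91407 to 94975 with vehicle and 100164 to 106886 with both. At 6 h it was 80885 to 88503 with RU486 alone and 92084 to 109180 with both (99886 to 109180 without the array that stands apart). The microglial sum at 2 h was 1344 to 1561 with corticosterone, 1670 to 1746 with vehicle and 1714 to 1820 with both. At 6 h these ranges were 1239 to 1513, 1547 to 1563 and 1664 to 1838, and at 4 h they overlapped. The fibroblast and meningeal sum at 4 h was 1879 to 2239 with corticosterone, 2095 to 2550 with vehicle and 2462 to 2784 with both. The oligodendrocyte sum at 4 h was higher with corticosterone, 3840 to 4116, than with vehicle, 3160 to 3713. Of 5 neuronal markers tested in limma, none was called for corticosterone against vehicle (1 had an unadjusted p under 0.05). Of these, 1, Stmn2, was higher with both agents than with corticosterone by 0.42 (adjusted p = 0.00155, and 0.00083 without the 2 arrays). In that comparison 1 of 6 microglial markers was called higher, and of 9 astrocyte markers 1 was higher and 1 lower (7.35% and 5.5% of all genes). The part of these cells in the results below was not tested.

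Promoter sequence was on hand for 5 of the 7 genes in RefSeq (GRCm38.p6), as the 250 bases before the annotated start. Those of Lbh and Mex3a are shown because these genes, chosen for lower levels with corticosterone, hold the same short motif. The capitals mark TGACG, the core of the cyclic AMP response element, or CGTCA, its reverse complement. The sequences are given 5′ to 3′ on the gene's strand, which is the plus strand for both.
Lbh, chr17:72918055-72918304: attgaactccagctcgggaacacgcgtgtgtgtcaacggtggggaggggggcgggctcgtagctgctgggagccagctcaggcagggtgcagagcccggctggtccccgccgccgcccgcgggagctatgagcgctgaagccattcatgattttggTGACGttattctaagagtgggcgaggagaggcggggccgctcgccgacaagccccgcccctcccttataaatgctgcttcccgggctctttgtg
Mex3a, chr3:88531696-88531945: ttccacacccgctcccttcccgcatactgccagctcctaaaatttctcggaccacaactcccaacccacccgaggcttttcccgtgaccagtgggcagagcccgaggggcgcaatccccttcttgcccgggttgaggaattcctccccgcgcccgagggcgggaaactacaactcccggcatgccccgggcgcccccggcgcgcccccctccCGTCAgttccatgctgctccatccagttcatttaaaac
This core lies at -94 to -90 from the start of Lbh on its own strand and at -38 to -34 from the start of Mex3a on the opposite strand. Phlda2 holds it at -206 to -202, in a window that lies inside the span annotated for that gene. It occurs in 17.8% of 32841 promoter windows of this length, so its presence is common. The other motifs searched on both strands had no match in the 5 windows. They were the glucocorticoid response element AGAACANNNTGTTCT (0.00913% of windows) and AGAACA (16.1%), an arm of that element. They also included the inverted-repeat element of CTCC and GGAGA with 0, 1 or 2 bases between them (0.231%, 0.588% and 0.566%), the AP-1 site TGANTCA (6.75%), the serum response element (1.47%) and the NF-kB site (7.25%). A missing match says only that these letters are not in the window. In the same build, Phlda1 lies at chr10:111506286-111508649, Tnfrsf11b at chr15:54250619-54278484, Prokr1 at chr6:87578586-87590762 and Phlda3 at chr1:135766085-135769134. The window of Prokr1, chr6:87590744-87590993 on the minus strand, overlaps the end of that gene's span.

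Phlda1 was lower with corticosterone than with vehicle at all 3 times. Its log2 intensities at 2 h were 9.82, 10.30 and 10.13 with vehicle and 9.13, 9.21 and 8.87 with corticosterone. At 4 h they were 9.38, 9.38 and 9.39 with vehicle and 7.81, 8.03 and 8.05 with corticosterone. At 6 h they were 10.37 (the array that stands apart), 9.28 and 9.28 with vehicle and 8.03, 8.04 and 8.33 with corticosterone. The groups did not overlap at any of the 3 times, every corticosterone array being below every vehicle array. The differences, corticosterone minus vehicle, were -1.01, -1.42 and -1.51 at 2, 4 and 6 h (SE 0.25 each), and -1.14 at 6 h without the 2 arrays. Because these values chose the gene, they are given as a description with no test, here and for the other 4 selected genes. The level also differed between times. It was 10.08 ± 0.24 (SD, n = 3) with vehicle at 2 h and 9.38 ± 0.01 at 4 h, and with corticosterone it was 9.07 ± 0.18 at 2 h, 7.96 ± 0.13 at 4 h and 8.14 ± 0.17 at 6 h.

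With RU486 present, corticosterone gave no called decrease of Phlda1 at any time in limma. At 2 h its levels were 10.27, 9.87 and 10.12 with RU486 alone and 10.17, 10.36 and 10.81 with both, and at 4 h 9.62, 10.07 and 10.43 against 9.78, 9.48 and 9.89. These groups overlapped at both times. At 6 h the levels with RU486 alone, 8.41, 8.85 and 9.44, all lay below those with both, 9.97, 9.82 and 10.12 (the last from the array that stands apart). The difference between these groups uses neither vehicle nor corticosterone-only arrays and was therefore tested. Its SE and p-value draw on a spread shared by all 12 groups, which include those arrays, so the test is not wholly free of them. In limma, with Benjamini-Hochberg adjustment over all 18935 genes, Phlda1 was higher with both by 1.07 at 6 h (SE 0.25, adjusted p = 0.0416), and by 0.99 without both arrays that stand apart (SE 0.22, adjusted p = 0.018). With all arrays it was the only one of the 6 genes called in that comparison, in which 0.544% of all genes were called higher. The call depended on single arrays: among 6 fits that left out 1 array, it held without RU486 6 h replicate 3 (1.34, adjusted p = 0.0182) and was lost without the other 5. There it stood at 0.82 without RU486 6 h replicate 1 (adjusted p = 0.385), 1.04 without RU486 6 h replicate 2 (0.155), 1.07 without replicate 1 of both (0.0645), 1.14 without replicate 2 of both (0.0572) and 0.99 without replicate 3 of both (0.231), the array of this comparison that stands apart. It was also lost with no filter on dim probes (adjusted p = 0.0538), with normexp and an offset of 16 (0.057) and with an intensity trend and robust prior (0.074). The differences at 2 h, 0.36, and at 4 h, -0.32, did not pass (adjusted p = 0.771 and 1.0). The change of the difference from 4 h to 6 h, 1.39 (SE 0.35), did not pass either (adjusted p = 0.399, and 0.109 without the 2 arrays).

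**Figure D1:**
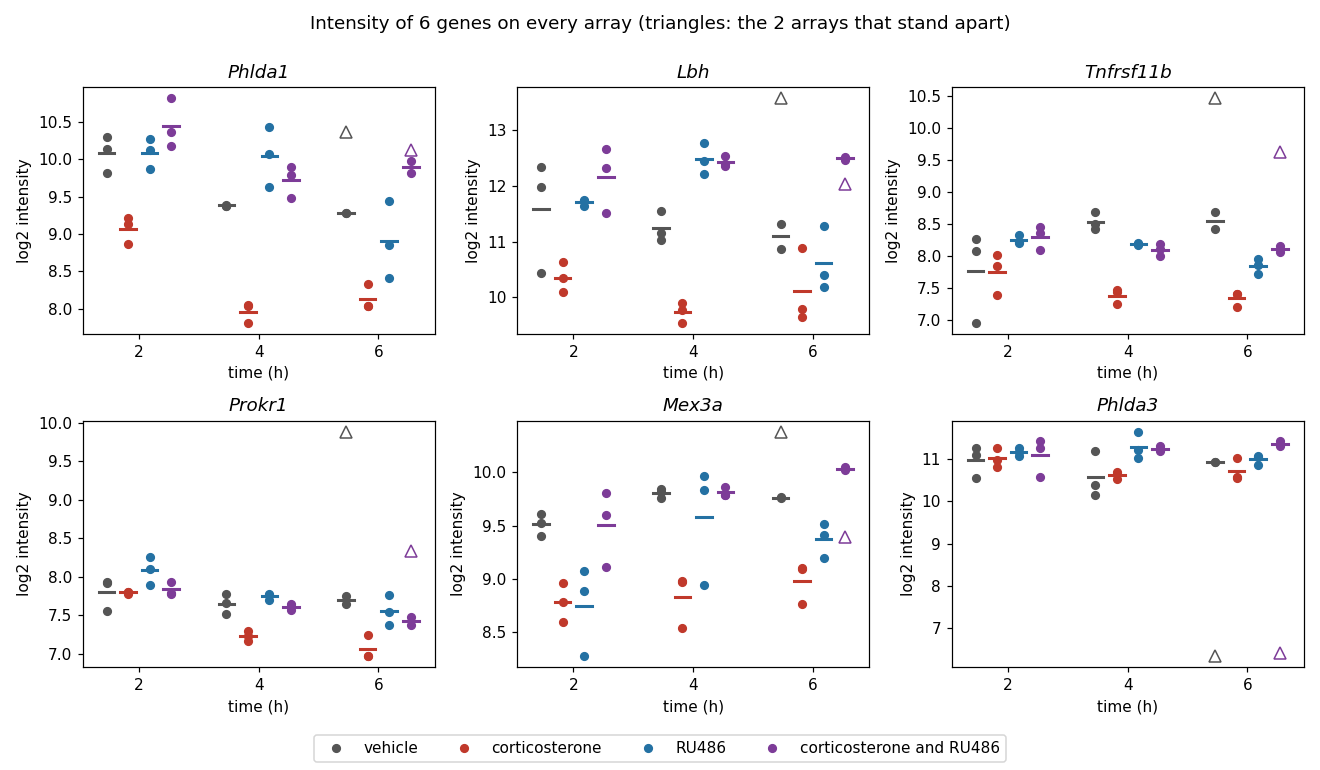
Log2 intensity of the brightest probe of 6 genes (vertical axes, scaled per gene) against time in hours, with 1 point per array and horizontal bars for group means without the 2 arrays that stand apart (open triangles). Phlda1 with corticosterone lies below vehicle at each time, and both triangles of Phlda3 lie near 6.4, far below its other arrays.

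Phlda1 changed over time with RU486 alone. Over the 3 times it went from 10.08 ± 0.20 to 10.04 ± 0.40 and then 8.90 ± 0.52 (SD, n = 3). The F test over time was called (adjusted p = 0.00282, and 4.89e-05 without the 2 arrays), and it stayed called in the 9 fits that left out 1 array of these groups (0.00093 to 0.0408). From 2 h to 6 h Phlda1 fell by 1.18 (SE 0.25, adjusted p = 0.0034), and from 4 h to 6 h it fell by 1.14 (adjusted p = 0.041), steps in which 4.38% and 0.227% of all genes were called lower. In this F test 9.9% of all genes were called, and 42.6% without the 2 arrays. The neuronal marker sum of RU486 alone was also lowest at 6 h, 3230 to 3873 against 4800 to 5655 at 2 h. The astrocyte marker sum was lowest there too, 80885 to 88503 at 6 h against 92869 to 109564 at 2 h and 90015 to 112517 at 4 h. For each of the other marker lists the 6 h and 2 h ranges overlapped. A link of any of these sums to Phlda1 was not tested. With both agents Phlda1 was 10.45 ± 0.33, 9.72 ± 0.21 and 9.97 ± 0.15, and its change over time did not pass (adjusted p = 0.125), although it did without the 2 arrays (0.0175). There 8.78% of all genes were called, and 27.7% without the 2 arrays. With vehicle Phlda1 was 10.08, 9.38 and 9.64 at 2, 4 and 6 h, and 9.28 at 6 h without the array that stands apart. Whether its course with RU486 alone differs from that with vehicle was not tested. The comparison of both against RU486 alone and the course of RU486 alone share the RU486 6 h arrays and are not separate evidence.

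Phlda3, the p53 target of the family, lay far above the array median on all but the 2 arrays that stand apart. On 34 arrays its log2 intensity lay between 10.15 and 11.65, and on the 2 arrays that stand apart it was 6.33 (vehicle 6 h) and 6.42 (both, 6 h). A second Phlda3 probe did the same, with 6.37 as its lowest value. The 2 arrays therefore set its sign at 6 h: corticosterone minus vehicle was 1.32 (SE 0.89, limma adjusted p = 0.346) with them and -0.21 (SE 0.24, adjusted p = 1.0) without. The mean over times was 0.47 (SE 0.52, adjusted p = 0.679) and, without the 2 arrays, -0.04 (SE 0.13, adjusted p = 0.908). As a relative that corticosterone did not select, Phlda3 could be tested in each comparison. It was not called for corticosterone against vehicle at any time, for RU486 against vehicle as a mean (0.84, adjusted p = 0.562) or for both against RU486 (mean -0.47, adjusted p = 0.969). It was called for both agents against corticosterone when the 2 arrays were left out: mean 0.45 (SE 0.13, adjusted p = 0.00896), and 0.62 at 4 h (adjusted p = 0.0445), where 8.93% of all genes were called higher. With array weights the mean was also called (0.53, adjusted p = 0.000194). At 4 h its levels were 10.54 to 10.70 with corticosterone and 11.21 to 11.32 with both, without overlap. With all arrays that mean was -0.10 (SE 0.52, adjusted p = 0.952). In this comparison 7.35% of all genes were called higher, and 15.7% without the 2 arrays.

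Phlda2, the imprinted member, stayed at the lower end of the scale on every array, between 6.26 and 6.69 on the log2 scale (76.7 to 103.6 intensity units), where the array medians were 110.5 to 111.2 and the lowest value of the table was 59.6. No background had been subtracted, so these values have no true zero and a change at this level would be understated. Fitted without the filter, corticosterone minus vehicle was 0.05 as a mean over times (SE 0.05, limma adjusted p = 0.701), and both against RU486 was 0.03 (adjusted p = 0.986). The 3 relatives gave 3 different pictures: Phlda1 lower with corticosterone, Phlda3 without a called difference from vehicle, and Phlda2 below the filter. Phlda1 was chosen for its lower values and Phlda2 and Phlda3 were not, so nothing is read from this contrast. Whether the corticosterone differences of Phlda1 and Phlda3 differ was not tested.

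Lbh lay wholly below vehicle at 4 h. At 2 h it was 10.43, 12.35 and 11.97 with vehicle and 10.63, 10.34 and 10.09 with corticosterone, and at 4 h 11.55, 11.15 and 11.02 against 9.54, 9.90 and 9.77. The 4 h groups did not overlap, and at 2 h vehicle replicate 1 lay among the corticosterone arrays. At 6 h it was 13.58 (the array that stands apart), 10.86 and 11.32 with vehicle and 9.78, 9.65 and 10.89 with corticosterone, which overlapped. The differences were -1.23, -1.51 and -1.81 (SE 0.48 each), and -0.98 at 6 h without the 2 arrays (SE 0.40).

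With both agents Lbh was among the highest of all groups, 12.54, 12.40 and 12.36 at 4 h. RU486 alone at 4 h was as high, 12.22, 12.78 and 12.45, and all 6 of these arrays lay above the 3 of vehicle (11.1% of all genes lay wholly above vehicle with RU486 alone at 4 h, and 13.9% with both). At 6 h RU486 alone was 10.39, 10.17 and 11.29, and both agents gave 12.47, 12.53 and 12.04 (the last from the array that stands apart), without overlap. The 6 h difference of both against RU486, 1.73 (SE 0.48), did not pass in limma with all arrays (adjusted p = 0.0958) and passed without the 2 arrays (1.88, SE 0.40, adjusted p = 0.0121) and when only these groups were fitted (adjusted p = 0.00839). Its mean over times was 0.71 (adjusted p = 0.422) and, without them, 0.76 (adjusted p = 0.0473). The share of genes called higher at 6 h without the 2 arrays was 1.72%. Over time with RU486 alone Lbh was called (F test adjusted p = 0.0319, and 0.000661 without the 2 arrays), as were 9.9% and 42.6% of all genes. That call was lost without RU486 2 h replicate 1 (0.0564) or 2 (0.0504), RU486 4 h replicate 2 (0.105) or 3 (0.0781), and RU486 6 h replicate 1 (0.113) or 2 (0.131). A second, dimmer Lbh probe ran with the first on the 34 other arrays (r = 0.944 across arrays) and parted from it on the 2 that stand apart, where it read 7.25 and 7.12. Its difference at 6 h, both against RU486, was 0.44 with all arrays (adjusted p = 0.778) and 1.5 without the 2 (SE 0.35, adjusted p = 0.026).

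Tnfrsf11b, the decoy receptor, lay below vehicle at 4 h and 6 h with corticosterone. At 2 h it was 6.95, 8.08 and 8.26 with vehicle and 7.39, 8.02 and 7.85 with corticosterone, with overlap. At 4 h it was 8.42, 8.50 and 8.69 against 7.24, 7.46 and 7.43, and at 6 h 10.47 (the array that stands apart), 8.42 and 8.69 against 7.41, 7.20 and 7.40. The later groups did not overlap. The differences were -0.011, -1.16 and -1.86 (SE 0.37 each), and -1.22 at 6 h without the 2 arrays (SE 0.22). With corticosterone at 6 h Tnfrsf11b read 169.7, 147.1 and 168.5 intensity units, near the array medians of 110.5 to 111.2. No background had been subtracted, so its differences may be understated.

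With RU486 alone Tnfrsf11b was 8.20, 8.21 and 8.32 at 2 h, 8.18, 8.21 and 8.17 at 4 h and 7.72, 7.85 and 7.95 at 6 h, and the 4 h and 6 h arrays were all below those of vehicle, as for 17.7% and 7.81% of all genes. With both agents it was 8.37, 8.09 and 8.45 at 2 h, 8.01, 8.11 and 8.18 at 4 h and 8.16, 8.06 and 9.62 at 6 h, the last from the array that stands apart. At 6 h these did not overlap with RU486 alone, yet the difference of 0.77 did not pass (SE 0.37, limma adjusted p = 0.394) and was 0.27 without that array (adjusted p = 1.0) and without both arrays that stand apart (0.614). The change over time with RU486 alone was not called (adjusted p = 0.745, and 0.174 without the 2 arrays).

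Prokr1, the prokineticin receptor, showed the smallest differences of the selected genes once the array that stands apart was left out. It was 7.93, 7.55 and 7.92 with vehicle and 7.81, 7.81 and 7.77 with corticosterone at 2 h, where the groups overlapped. At 4 h it was 7.51, 7.77 and 7.66 against 7.17, 7.23 and 7.30, and at 6 h 9.88 (the array that stands apart), 7.76 and 7.64 against 7.24, 6.97 and 6.97, without overlap at either time. The differences were -0.0035, -0.42 and -1.37 (SE 0.32 each), and -0.64 at 6 h with the 2 arrays left out (SE 0.12). With corticosterone at 6 h it read 150.9, 125.2 and 125.8 intensity units, near the array medians of 110.5 to 111.2. No background had been subtracted, so the differences of Prokr1 may be understated. Its second probe read 6.41 on vehicle 6 h replicate 1, where the first read 9.88, and across all 36 arrays the 2 probes had r = -0.111, against 0.552 on the other 34.

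With RU486 alone Prokr1 was 8.26, 8.11 and 7.89 at 2 h and 7.54, 7.37 and 7.76 at 6 h. With both it was 7.79, 7.78 and 7.94 at 2 h and 7.48, 7.38 and 8.33 at 6 h, the last from the array that stands apart. Neither time separated the groups. At 4 h both agents (7.61, 7.57 and 7.65) lay below RU486 alone (7.77, 7.76 and 7.70) by 0.13, which did not pass (SE 0.32, limma adjusted p = 1.0). The course of Prokr1 over time was not called with all arrays for RU486 alone (adjusted p = 0.536) or both (0.843), and was called without the 2 arrays for each (0.00107 and 0.0286). Without the 2 arrays these F tests called 42.6% of all genes for RU486 alone and 27.7% for both.

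Mex3a, the RNA-binding protein, was lower with corticosterone at each time without overlap, like Phlda1. With vehicle it was 9.40, 9.61 and 9.52 at 2 h, 9.84, 9.82 and 9.76 at 4 h, and 10.38 (the array that stands apart), 9.76 and 9.76 at 6 h. With corticosterone it was 8.60, 8.96 and 8.78 at 2 h, 8.54, 8.98 and 8.97 at 4 h, and 8.76, 9.10 and 9.09 at 6 h. The corticosterone groups stayed level over time. The differences were -0.73, -0.97 and -0.98 (SE 0.23 each), and -0.78 at 6 h without the 2 arrays.

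On the brightest probes, Mex3a was the only one of the 6 genes wholly below vehicle with RU486 alone at 2 h (8.27, 8.89 and 9.08). So were 4.54% of all genes, and Mex3a overlapped there with corticosterone. With RU486 alone it was then 8.95, 9.83 and 9.96 at 4 h and 9.19, 9.51 and 9.41 at 6 h. With both agents it was 9.11, 9.60 and 9.81 at 2 h, 9.79, 9.86 and 9.79 at 4 h, and 10.05, 10.02 and 9.39 at 6 h (the last from the array that stands apart). The 2 h groups did not overlap, both agents being higher by 0.76 (SE 0.23), which did not pass in limma with all arrays (adjusted p = 0.346) and passed without the 2 arrays (SE 0.20, adjusted p = 0.0371). The share of genes called higher at 2 h without the 2 arrays was 1.65%. The mean over times was 0.48 (SE 0.14, adjusted p = 0.197) and, without the 2 arrays, 0.55 (SE 0.12, adjusted p = 0.0174), where 1.66% of all genes were called higher. Over time with RU486 alone Mex3a was called (F test adjusted p = 0.043, and 0.00448 without the 2 arrays), as were 9.9% and 42.6% of all genes. It rose by 0.84 from 2 h to 4 h (SE 0.23, adjusted p = 0.024), a step in which 3.73% of all genes were called higher. The F test call held without RU486 2 h replicate 3 or RU486 4 h replicate 1 and was lost without each of the other 7 arrays of these groups. The lost values were 0.289 and 0.0792 without RU486 2 h replicates 1 and 2, 0.124 and 0.133 without RU486 4 h replicates 2 and 3, and 0.0521, 0.0669 and 0.0559 without RU486 6 h replicates 1, 2 and 3. It was also lost with an intensity trend and robust prior (0.0506) and when only these groups were fitted (0.0772). Of the 2 dimmer Mex3a probes, the brighter gave -0.48 for corticosterone against vehicle without the 2 arrays (mean over times, SE 0.062) and 0.077 for both against RU486 (adjusted p = 0.521). The dimmest, above the array median on 16 of 36 arrays, gave -0.066 (SE 0.066) for corticosterone against vehicle and 0.18 for both against RU486 (adjusted p = 0.14), so only the brightest probe was called. On the brighter of these 2 probes, RU486 alone at 2 h (8.17 to 8.26) overlapped vehicle (8.17 to 8.32) and lay above corticosterone (7.91 to 8.01). Its mean with RU486 alone was 8.23 at 2 h and 8.32 at 4 h.

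**Figure D2:**
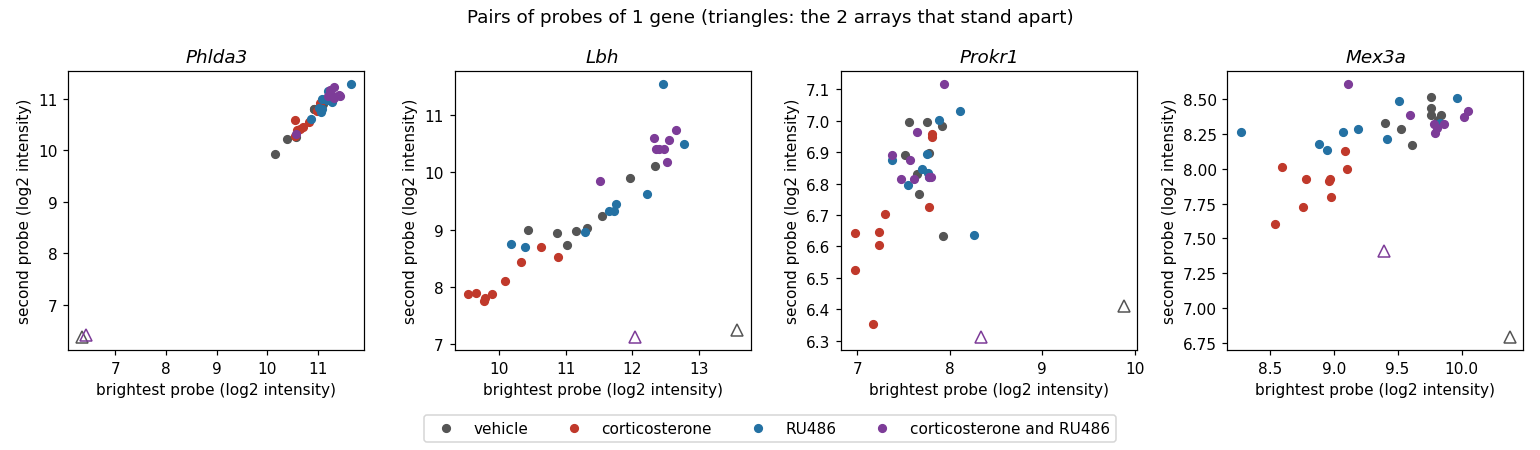
Log2 intensity of the second-brightest probe against the brightest probe of the same gene, for the 4 genes with more than 1 probe, 1 point per array, coloured by treatment. The open triangles are the 2 arrays that stand apart, and for Lbh, Prokr1 and Mex3a they lie off the line of the other 34 arrays.

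The groups of corticosterone and vehicle separated for 2 to 5 of the 6 genes. At 2 h, 2 of the 6 genes lay wholly below vehicle (Phlda1 and Mex3a), against 5.51% of all genes. At 4 h it was 5 of 6, all but Phlda3, against 19.8% of all genes, and at 6 h 4 of 6, all but Lbh and Phlda3, against 8.07%. These counts use all 36 arrays. The rule used these arrays for 5 of the 6, so nothing is read from the counts. With both agents against corticosterone, 4, 6 and 5 of the 6 lay wholly above at 2, 4 and 6 h, against 14.7%, 23.2% and 12.5% of all genes. With both agents against RU486 alone, 1 of 6 lay wholly above at 2 h (8.35% of all genes) and 3 of 6 at 6 h (Phlda1, Lbh and Tnfrsf11b, 12.1% of all genes), and 1 of 6, Prokr1, lay wholly below at 4 h (7.29% of all genes).

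With both agents Lbh and Phlda1 lay above the vehicle level as means over times, and Tnfrsf11b lay below it at 4 h and 6 h. As means over times, both agents minus corticosterone was 2.25 for Lbh (SE 0.28), 1.65 for Phlda1 (SE 0.14), 0.85 for Tnfrsf11b (SE 0.21), 0.85 for Mex3a (SE 0.14) and 0.36 for Prokr1 (SE 0.19), and on the 34 other arrays 2.30, 1.63, 0.68, 0.92 and 0.26 in the same order. Both agents minus vehicle was 0.74 for Lbh, 0.34 for Phlda1, -0.05 for Mex3a, -0.16 for Tnfrsf11b and -0.23 for Prokr1, and without the 2 arrays 1.06, 0.44, 0.091, -0.12 and -0.092. By time, Tnfrsf11b with both agents minus vehicle was 0.54 at 2 h, -0.44 at 4 h and -0.58 at 6 h (-0.45 without the 2 arrays), and its 4 h arrays lay wholly below vehicle, as for 24% of all genes. The corticosterone difference with RU486 minus that without it was 2.23 for Lbh (SE 0.39), 1.68 for Phlda1 (SE 0.20), 1.38 for Mex3a (SE 0.19), 1.26 for Tnfrsf11b (SE 0.30) and 0.53 for Prokr1 (SE 0.26). With the 2 arrays left out these were 2.00, 1.54, 1.38, 0.87 and 0.18. Each of these differences uses arrays that chose the genes, and they share arrays with each other, so none carries a test. For Phlda3 the corresponding value could be tested and did not pass (-0.94, SE 0.73, limma adjusted p = 0.533, and 0.12, adjusted p = 0.721, without the 2 arrays).

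**Figure D3:**
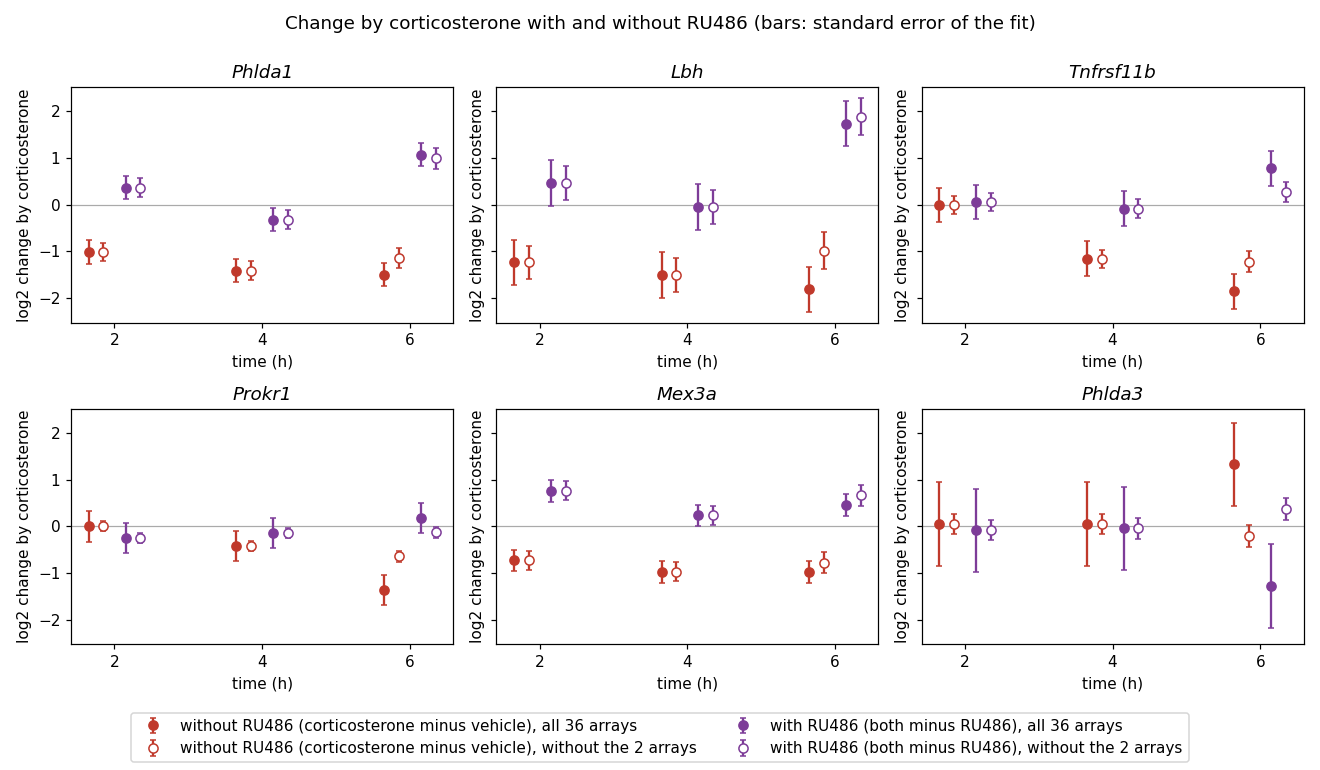
Log2 difference by corticosterone at each time for 6 genes, without RU486 (corticosterone minus vehicle, red) and with RU486 (both minus RU486, purple), for all 36 arrays (filled) and without the 2 that stand apart (open), with bars of 1 standard error of the fit. For Phlda1, Lbh and Mex3a the red points lie below 0 at each time, and the purple points of Phlda1 and Lbh are highest at 6 h.

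The order of levels over the 12 groups differed between the genes. For the 34 arrays, Phlda1 was highest with both agents at 2 h (10.45) and lowest with corticosterone at 6 h (8.14) and 4 h (7.96), and the step to the next group exceeded the larger of the 2 groups' SDs for 6 of 11 neighbours. For Lbh the 3 corticosterone groups were the lowest 3 of 12, and no step between neighbours exceeded that spread. Tnfrsf11b was highest with vehicle at 6 h and 4 h (8.55 and 8.54) and lowest with corticosterone at 4 h and 6 h (7.38 and 7.33), with 4 of 11 steps beyond the spread. Prokr1 ran from 8.08 with RU486 at 2 h to 7.06 with corticosterone at 6 h, also with 4 of 11. Mex3a ran from 10.03 with both at 6 h to 8.75 with RU486 at 2 h, with 3 of 11. Phlda3 had no step beyond the spread.

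Among the 6 genes, Lbh and Phlda1 had the most similar course, with r = 0.900 across the 12 group means (0.893 without the 2 arrays). Phlda1 and Phlda3 had r = 0.078, and 0.696 without the 2 arrays. Over all genes of the fit the closest to Phlda1 were Sertad4 (r = 0.971), Lmcd1, a LIM-domain cofactor (0.968), Mapk6, the atypical kinase ERK3 (0.965), Vps37d, an ESCRT-I subunit (0.963), and Syn1, synapsin 1 (0.950). Over the 34 other arrays they included Coro2b (0.982), Mapk6 (0.978), Lmcd1 (0.975) and Kcnip3 (0.973), so Mapk6 and Lmcd1 were named both ways. Closest to Lbh were the chemokine Cxcl14 (0.985), Dbc1 (0.981) and Pip4k2b (0.975), and without the 2 arrays the astrocyte filament gene Gfap came first (0.990, against 0.756 with them). Closest to Tnfrsf11b were Insm1, Esrrg and Epha5 (0.942 to 0.948), to Prokr1 Zc3h12b, Actc1 and Zfp710 (0.941 to 0.970), and to Mex3a Kctd12, Pold3 and Helz (0.930 to 0.940). Of these 9, only Pold3 was also among the closest 3 without the 2 arrays (0.972). Closest to Phlda3 were Slc22a17, Clptm1 and ORF61 (0.977 to 0.978), 2 of which, Clptm1 and ORF61, remained so without the 2 arrays. The points share 12 groups and 2 divergent arrays, and the values describe these arrays only.

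Genes around the 7 were examined as lists, for corticosterone against vehicle as a mean over times, in which 1.48% of all genes were called higher and 1.47% lower (5.08% and 7.34% without the 2 arrays). The median of all genes was -0.032, and -0.0037 without the 2 arrays. None of 8 ERK output genes, whose pathway induces Phlda1, passed in limma (2 lower at an unadjusted p under 0.05, list median -0.13), with Dusp4 at -0.39 (adjusted p = 0.316) and Spry4 at -0.21 (0.194). Etv5 was at 0.077 (adjusted p = 0.949) and Epha2 at -0.11 (0.742), and when the 2 arrays were left out Etv5 fell by 0.42 (adjusted p = 0.00324) and Epha2 fell by 0.27 (0.0443). Both were named after their values were seen. Of 18 p53 targets, the class to which Phlda3 belongs, 1 was called higher: Sesn1, a stress-induced regulator of TORC1, rose by 0.65 (SE 0.18, adjusted p = 0.0486). The Sesn1 call held without vehicle 2 h replicate 1 or vehicle 6 h replicate 1 and was lost in the other 16 of 18 fits that left out 1 array (adjusted p up to 0.107). On the 34 other arrays 3 were called higher, Sesn1 by 0.82, the DNA polymerase gene Polk by 0.50 and the cell-cycle inhibitor Cdkn1a by 0.38 (adjusted p = 4.31e-07, 0.000194 and 0.00173). With all arrays Cdkn1a was at 0.58 (adjusted p = 0.0542). The p53 list's median was 0.04, and 0.08 without the 2 arrays. For both agents against corticosterone, 3 of the 18 p53 targets were called lower and 2 higher in limma (5.5% and 7.35% of all genes). Sesn1 was among the lower ones, with a log2 change of -1.17 to -0.90 over 18 fits that left out 1 array. It was called in all 18 (adjusted p up to 0.00161).

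The neighbourhood of the other genes was mostly without calls. Of 10 measured imprinted neighbours of Phlda2, 1 was called: the cell-cycle inhibitor Cdkn1c rose by 0.65 (SE 0.18, adjusted p = 0.0455) and by 0.78 without the 2 arrays (adjusted p = 0.000415), and it was lower with both agents than with corticosterone by a log2 change of -0.63 (adjusted p = 0.0182, and 0.000223 without the 2 arrays), where 5.5% of all genes were called lower. With all arrays the Cdkn1c call against vehicle held without vehicle 2 h replicate 1, vehicle 6 h replicate 1 or corticosterone 6 h replicate 3 and was lost in the other 15 of 18 fits that left out 1 array (adjusted p up to 0.141). Its call against corticosterone was lost without replicate 3 of both at 2 h (0.0508). None of 6 genes of the osteoprotegerin pathway passed (none at an unadjusted p under 0.05), including its ligands Tnfsf11 (0.16, adjusted p = 0.419) and Tnfsf10 (-0.16, 0.534). Tnfsf11, RANKL, rose without the 2 arrays by 0.23 (adjusted p = 0.0216). Prok2, the 1 prokineticin gene measured of 3, was at -0.10 (adjusted p = 0.427) and was higher with both agents than with corticosterone by 0.23 (SE 0.056, adjusted p = 0.00535, and 0.00292 without the 2 arrays). Of 2 other Mex3 genes neither passed, with Mex3c at -0.38 (adjusted p = 0.567). Mex3c fell by 0.62 when the 2 arrays were left out (adjusted p = 0.0484).

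Wnt targets were listed for Lbh. Of 10 measured, 1 was called: Axin2, a feedback inhibitor of the pathway, fell by 0.55 with corticosterone (SE 0.084, adjusted p = 0.000109) and stayed called in all 18 fits that left out 1 array. Axin2 was higher with both agents than with corticosterone by 0.76 (SE 0.084, adjusted p = 5.12e-07) and higher than with RU486 alone at 6 h by 0.67 (SE 0.15, adjusted p = 0.0315), and without the 2 arrays by 0.77 and 0.72 (adjusted p = 8.73e-08 and 0.0144). The last call held without RU486 6 h replicate 3 and was lost without RU486 6 h replicates 1 and 2 (0.324 and 0.103) and replicates 1, 2 and 3 of both (0.0686, 0.0572 and 0.0882). Nkd1, another feedback inhibitor, was at -0.22 with all arrays (adjusted p = 0.0566) and fell by 0.25 without the 2 (0.00872). Of 10 AKT pathway genes 1 was called: Pik3r1, a regulatory subunit of PI3-kinase, rose by 0.96 (SE 0.15, adjusted p = 0.000215, and 0.000152 without the 2 arrays) and stayed called in all 18 such fits. The medians of the Wnt and AKT lists were -0.09 and -0.11, and -0.07 and -0.05 without the 2 arrays. For both agents against corticosterone, 1 of the 10 AKT pathway genes, Pik3r1, was called lower and 2 were called higher (5.5% and 7.35% of all genes). The log2 change of Pik3r1 there was -0.88 to -0.74 over 18 fits that left out 1 array, all called.

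Of 12 measured genes known to be lowered by glucocorticoids elsewhere, 3 were called lower and none higher, against 1.47% and 1.48% of all genes. Of these 3, 2 are described. The chemokine Cxcl10 fell by 0.78 (SE 0.21, adjusted p = 0.0303), and the growth factor Bdnf fell by 0.70 (SE 0.15, adjusted p = 0.00787). Bdnf stayed called in all 18 fits that left out 1 array. The Cxcl10 call held without corticosterone 2 h replicate 2, 4 h replicate 1 or 6 h replicate 3, or vehicle 2 h replicate 1 or 2, 4 h replicate 1 or 6 h replicate 1, and was lost without each of the other 11 arrays (adjusted p up to 0.074). With the 2 arrays left out Cxcl10 fell by 1.04 and Bdnf fell by 0.52, and the adhesion genes Vcam1 and Icam1 were lower as well (-0.58 and -0.30, adjusted p = 0.00353 and 0.00712). There 5 of the 12 genes were called lower, against 7.34% of all genes. The list's median was -0.13 (-0.14 without the 2 arrays). Some of these genes may have been known from earlier results on the same arrays, so the lists are no independent check of the 7 genes.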

How the data were processed

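Biotin-labelled cRNA of mouse astrocyte cultures was hybridised to Illumina bead arrays, 36 in 12 groups taken from the labels. The authors deposited 1 table of linear intensities for 45281 probes, which its values show to be quantile-normalized (sorted columns differ by at most 1.15%) with no background subtracted. The submitters' processing notes name GenomeStudio. Its settings are not given in the sources used here. A further table has 72 columns of per-sample values that match no label, so only its probe symbols were used.

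The deposited intensities were converted to log2. The 28397 probes above their array's median 3 times or more were used, and the brightest probe stood for each gene (18935 genes). Of the names, 11396 were current in RefSeq GRCm38.p6, 3040 were updated and 4499 kept. The 12 group means were estimated with lmFit and eBayes (limma 3.58.1, R 4.3.3), adjusted by Benjamini-Hochberg over all genes, and called at an adjusted p under 0.05. The fit was tested on simulated data. Plots used matplotlib 3.10.9.

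The 7 genes and the lists were chosen with earlier results of these data known. Likeness is Pearson's r over 12 group means: 5 genes are named for Phlda1 and 3 for each other gene, without predicted genes or clones. From each list, called genes with the largest change are named, else those of largest size. The results of 1 gene are not reported here. Deviations of same-numbered replicates correlated from -0.114 to 0.571 at 2 h (all pairs of replicates 1 and 2 above 0.1), from -0.312 to 0.212 at 4 h and from -0.785 to 0.782 at 6 h. Not every pair exceeded 0.1, so numbers were not treated as pairs. Alternatives covered the filter, background, scaling, array weights, variance prior, replicate block, probes and each array left out. The number of arrays limits the precision.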

Additional observations from a re-analysis of the deposited data

How the results depend on the processing

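The counts of called genes (adjusted p under 0.05, means over times or F tests) depended most on the 2 arrays that stand apart and on how arrays were weighted. For corticosterone with RU486 against RU486, the comparison in which 6 of the 7 genes were tested, 8 genes were called. The count was 581 without the 2 arrays, 5783 with array weights, 154 with only the groups compared, 17 with a replicate block, 16 with repeated quantile normalization, and 5 with normexp and an offset of 16 or with all probes tested separately, and leaving out 1 array gave 0 to 5. For corticosterone against vehicle it was 560, against 2352 without the 2 arrays, 5866 with array weights, 354 with only the groups compared and 356 to 1165 with 1 array left out. For both agents against corticosterone it was 2434, against 5906, 9529 with array weights and 1834 to 2810. For RU486 against vehicle it was 14, against 282, 2501 with array weights, 5 with an intensity trend and robust prior, 1 with only the groups compared and 3 to 56. For both agents against vehicle it was 97, against 1233, 4820 with array weights, 54 with normexp and an offset of 16, 160 with the replicate block, 47 with the trend, 15 with only the groups compared and 31 to 576. Over time, RU486 alone gave 1875, against 8075, 13318 with array weights, 5971 with only the groups compared and 970 to 1956. Both agents over time gave 1662, against 5254, 8851 with array weights, 913 with probes above the median on every array, 723 with only the groups compared and 778 to 2009. Vehicle over time gave 1990, against 3130, 6743 with array weights, 1086 with probes above the median on every array, 3055 with all probes, 0 with only the groups compared and 699 to 7610. Fewer samples in a fit leave fewer degrees of freedom, and the cause of the other shifts was not tested.

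Directions turned for values that were not called with all arrays at equal weight. Phlda3, both against RU486, turned from -0.09 to 0.17 at 2 h with array weights, at 6 h from -1.28 to 0.37 both with array weights and without the 2 arrays, and as a mean from -0.47 to 0.16 and 0.079 (0.37 and 0.079 with all probes tested separately, an alternative chosen after seeing the data). Phlda3, corticosterone against vehicle, turned with array weights to -0.051 at 2 h, -0.29 at 6 h and -0.034 as a mean, and without the 2 arrays to -0.21 and -0.038. For both against corticosterone its mean turned to 0.53 with array weights and 0.45 without the 2 arrays, and each of these was called. Prokr1 at 6 h, both against RU486, turned from 0.17 to -0.067 with array weights and to -0.13 without the 2 arrays, also with all probes. With 1 array left out, Phlda3 ranged from -0.26 to 0.17 at 2 h, -0.18 to 0.13 at 4 h, -2.13 to 0.37 at 6 h and -0.75 to 0.079 as a mean for both against RU486, from -0.17 to 0.19, -0.16 to 0.36, -0.21 to 2.09 and -0.038 to 0.73 for corticosterone against vehicle, and from -0.38 to 0.45 for both against corticosterone. Others also turned. For both against RU486 these were Lbh at 4 h (-0.18 to 0.10), Tnfrsf11b at 2 h (-0.018 to 0.16), Prokr1 at 6 h (-0.13 to 0.35) and Mex3a at 4 h (-0.086 to 0.42). Untested values near 0 that turned were corticosterone against vehicle at 2 h for Tnfrsf11b (-0.42 to 0.24) and Prokr1 (-0.13 to 0.060), and the means of RU486 against vehicle for Phlda1 (-0.12 to 0.093), Lbh (-0.17 to 0.30) and Prokr1 (-0.29 to 0.078). Among the other alternatives, for both against RU486, array weights alone called Phlda1 (0.59) and Lbh (0.72) at 2 h, Tnfrsf11b (0.30) and Mex3a (0.66) at 6 h, and the means of Phlda1 (0.44) and Prokr1 (-0.15). The replicate block changed no call of the 6 genes tested. It gave each replicate number 1 shift shared by all times, so a shift present only at 2 h was not modelled. The filter on detection p-values was not run, because its columns could not be tied to samples. Of 768 values under these alternatives other than leaving out 1 array, 713 kept their direction and their side of the threshold, or moved by less than the spread between arrays.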
